A study of Danio rerio with 12 samples.

Results

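The expression of 8 genes of vascular and visceral smooth muscle and of the apelin system was followed across the 12 RNA-seq libraries: acta2, tagln, myh11a, cnn1b, desmb, apln, aplnra and aplnrb. Rows were found by gene symbol, matched without regard to case against the table that pairs Ensembl identifiers with names. The symbols themselves were set with earlier results of these data known, and acta2 is among the apelin signalling genes that the study picked from these same libraries for the combination of heat and stress medium. Of the 8 symbols, 5 matched, and they gave 6 of the 32520 rows in each library: acta2 (ENSDARG00000045180), tagln (ENSDARG00000033466 and ENSDARG00000045408, both named TAGLN), apln (ENSDARG00000053279), aplnra (ENSDARG00000002172) and aplnrb (ENSDARG00000036670). The other 3 symbols, myh11a, cnn1b and desmb, matched no row, because the name table lists MYH11, CNN1 and DES without the letter of the zebrafish copy, with 2 rows each. Those 6 rows are described by their identifiers next to the 6 matched ones, and none of them is called the a or the b copy.

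Smooth muscle cells wrap blood vessels and the gut and generate slow, sustained tension. Their contractile apparatus contains smooth muscle alpha-actin (acta2), the actin-binding proteins transgelin (tagln) and calponin (cnn1), smooth muscle myosin heavy chain (myh11) and the intermediate filament protein desmin, and in vertebrates many of these genes are switched on together by serum response factor and its coactivators of the myocardin family. In zebrafish the mural cells that express acta2 gather on vessels mainly after the first day of life. Apelin (apln) is a small secreted peptide that acts through a G-protein-coupled receptor, encoded in zebrafish by aplnra and aplnrb, and a second ligand, apela, acts through the same receptors during gastrulation and heart formation. Apelin signalling is known for guiding vessel growth and for cardiovascular development.

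The samples were whole embryos of the wild-type AB line at 1 day post fertilisation (dpf), each incubated in a tube of its own for 24 h and then pooled. The TS+SM embryos received thermal stress (TS) in medium carrying stress metabolites (SM), TS embryos had the same heat in fresh medium, SM embryos were in stress medium at a constant 27°C, and C embryos were in fresh medium at 27°C. The thermal stress took the embryos from 27°C to a peak of 32°C and back in 15 min steps, 19 times over, and the stress medium was the pooled medium of other embryos that had been heated in this way the day before. Each of the 4 groups had 3 pools of 20 embryos, so an individual embryo's value cannot be seen. The libraries came from polyA RNA of the whole body: fewer cells of a type and less RNA per cell cannot be told apart in them, nor can the tissue in which a gene was transcribed. The paper states that heat accelerated development in the embryos it imaged. It also says that heat stress and faster development cannot yet be separated as sources of the TS effects. The pools were taken at the same age and were not matched for stage. Whether stage had a part in the differences between heated and unheated pools was not tested.

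Between 18764434 and 60239167 counts per library fell on genes, with the highest total in TS+SM replicate 1. Reads mapping to several places made up 4.51 to 10.4% of the reads and were in no gene's count. Levels are given as CPM (counts scaled to a library of 1000000, with sizes adjusted by the trimmed mean of M values, TMM), and differences as log2 fold changes from edgeR's quasi-likelihood test, fitted once to all 12 libraries with treatment as a factor. A gene was called at a Benjamini-Hochberg adjusted p of 0.05 or less over the 18688 genes that passed a filter on low counts. P-values set each difference against the spread between pools of the same group, as estimated from these libraries. An exact permutation test of 3 pools against 3 cannot go below p = 0.1. That limit does not hold for heat averaged over both media, which uses the pools of all 4 groups. No permutation test was run for any comparison. Over all genes the median log2 fold change lay between -0.03 and 0.00 in the 7 comparisons.

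Of the 12 rows, 8 passed the filter: acta2, both tagln rows, apln, aplnra, aplnrb, MYH11 ENSDARG00000009782 and DES ENSDARG00000058656. No row was called by edgeR in any of the 7 comparisons. In TS+SM against C 0 of 8 were called, next to 0.171% of all genes. An unadjusted p of 0.05 or less was reached by 2 of the 8, acta2 and tagln ENSDARG00000045408, next to 6.24% of all genes. The study had picked acta2 for TS+SM on these libraries, so its place in this count is not independent of that choice. The same holds for the counts below that include TS+SM pools. In TS+SM against SM 0 of 8 were called (0.107% of all genes) and 4 reached that unadjusted p (6.01% of all genes): the same 2 rows with DES ENSDARG00000058656 and apln. Between TS+SM and TS 0 of 8 were called (0% of all genes), and acta2 alone reached the unadjusted threshold (1.45% of all genes). In TS against C 0 of 8 were called (0.0963% of all genes), and apln alone reached it (4.45% of all genes). In SM against C 0 of 8 were called (0% of all genes), and 0 reached it (2.12% of all genes). For the average effect of heat over both media 0 of 8 were called (0.851% of all genes) and 4 reached it, all higher in heat (9.36% of all genes), namely acta2, tagln ENSDARG00000045408, DES ENSDARG00000058656 and apln. The interaction of heat and SM, which asks whether heat acted differently in stress medium than in fresh medium, gave 0 called (0% of all genes) and 0 at the unadjusted threshold (0.915% of all genes).

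DESeq2, run as an alternative on the same counts, called 1 row in TS+SM against C (1% of the genes it adjusted over), 1 in TS+SM against SM (0.707%), and 2 for heat averaged over both media (2.15%). It called 0 in TS against C (0.575%), 0 in SM against C (0.00362%), 0 in TS+SM against TS (0%) and 0 for the interaction (0.00724%). The rows it called were acta2 in all 3 of those comparisons and tagln ENSDARG00000045408 for the average effect of heat. The study had picked acta2 from these libraries with DESeq2 in TS+SM against C. The call there therefore repeats that choice, and the other acta2 calls share the same TS+SM pools, so none of them is independent evidence.

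**Figure D1:**
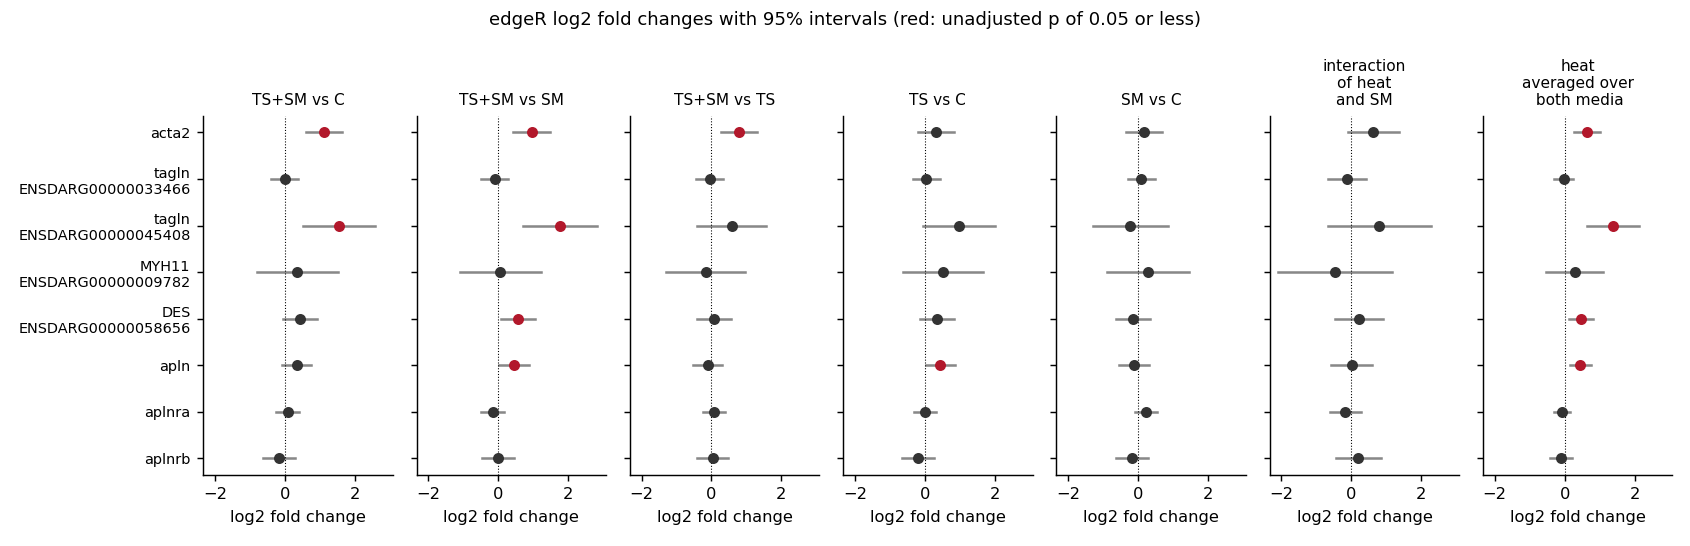
Log2 fold changes from edgeR (points) with 95% intervals (lines) of the 8 rows that passed the filter, 1 panel for each of the 7 comparisons, with an unadjusted p of 0.05 or less in red. The acta2 interval lies above 0 in the 3 comparisons with TS+SM on top, at 1.13, 0.96 and 0.80, while tagln ENSDARG00000033466, aplnra and aplnrb stay within 0.24 of 0 in every panel.

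Smooth muscle alpha-actin was highest in the combined treatment, for which the study had picked acta2 on these libraries, so its values in TS+SM are not independent evidence of that direction. In TS+SM pools acta2 had 6.33, 5.23 and 5.09 CPM, in TS pools 2.88, 3.76 and 2.94 CPM, in SM pools 3.03, 2.23 and 3.31 CPM, and in C pools 2.97, 2.55 and 2.10 CPM. The 3 TS+SM pools lay above all 9 others, with 5.09 CPM in the lowest TS+SM pool against 3.76 CPM in the highest other pool, whereas TS, SM and C overlapped one another. This arrangement was looked for after the acta2 values had been seen, and 70 of the 18688 genes tested (0.375%) showed it. The counts behind these levels were 282, 108 and 112 reads in TS+SM, 81, 74 and 114 in TS, 52, 50 and 80 in SM, and 78, 70 and 60 in C, so that counting error alone gave each library's value a coefficient of variation of 5.95 to 14.1%.

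On average acta2 stood at 5.55 ± 0.68 CPM in TS+SM and 2.54 ± 0.43 CPM in C (SD, n = 3 pools each). The log2 fold change was 1.13 (SE 0.24, 95% interval 0.61 to 1.65), with an unadjusted edgeR p of 0.000492, the 75th smallest of 18688, and an adjusted p of 0.123. Against SM, at 2.86 ± 0.56 CPM, it was 0.96 (SE 0.24, edgeR adjusted p = 0.260). Against TS, at 3.19 ± 0.49 CPM, it was 0.80 (SE 0.24), with an unadjusted edgeR p of 0.00538, the 16th smallest, and an adjusted p of 0.996. Pools of TS+SM all above those of TS were found for 2.71% of all genes.

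Neither single treatment set acta2 apart from C beyond the spread between pools. The log2 fold change was 0.33 in TS against C (95% interval -0.19 to 0.85, edgeR adjusted p = 1.00) and 0.17 in SM against C (95% interval -0.35 to 0.69, edgeR adjusted p = 0.989). The interaction of heat and SM was 0.63 (95% interval -0.10 to 1.37, edgeR adjusted p = 1.00), so a larger effect of heat in stress medium than in fresh medium was not separated from the spread between pools. Averaged over both media, heat gave 0.64 (SE 0.17, edgeR adjusted p = 0.124).

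The call for acta2 turned on the tool and on single libraries. In TS+SM against C, DESeq2 is also the tool by which the study picked acta2 from these libraries, so its call repeats that choice. With DESeq2 the adjusted p was 0.00266 in TS+SM against C, 0.0382 in TS+SM against SM and 0.0290 for heat averaged over both media. Refitting DESeq2 with each of the 12 libraries left out in turn kept the call in TS+SM against C in 9 fits, and lost it without TS+SM replicate 1 (adjusted p = 0.0957), C replicate 2 (adjusted p = 0.0768) or C replicate 3 (adjusted p = 0.0728). The call in TS+SM against SM held in 3 of 12 such fits, those without TS replicate 3, SM replicate 3 or C replicate 3. That for heat held in 4 of 12, those without TS+SM replicate 3, TS replicate 3, SM replicate 3 or C replicate 1.

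**Figure D2:**
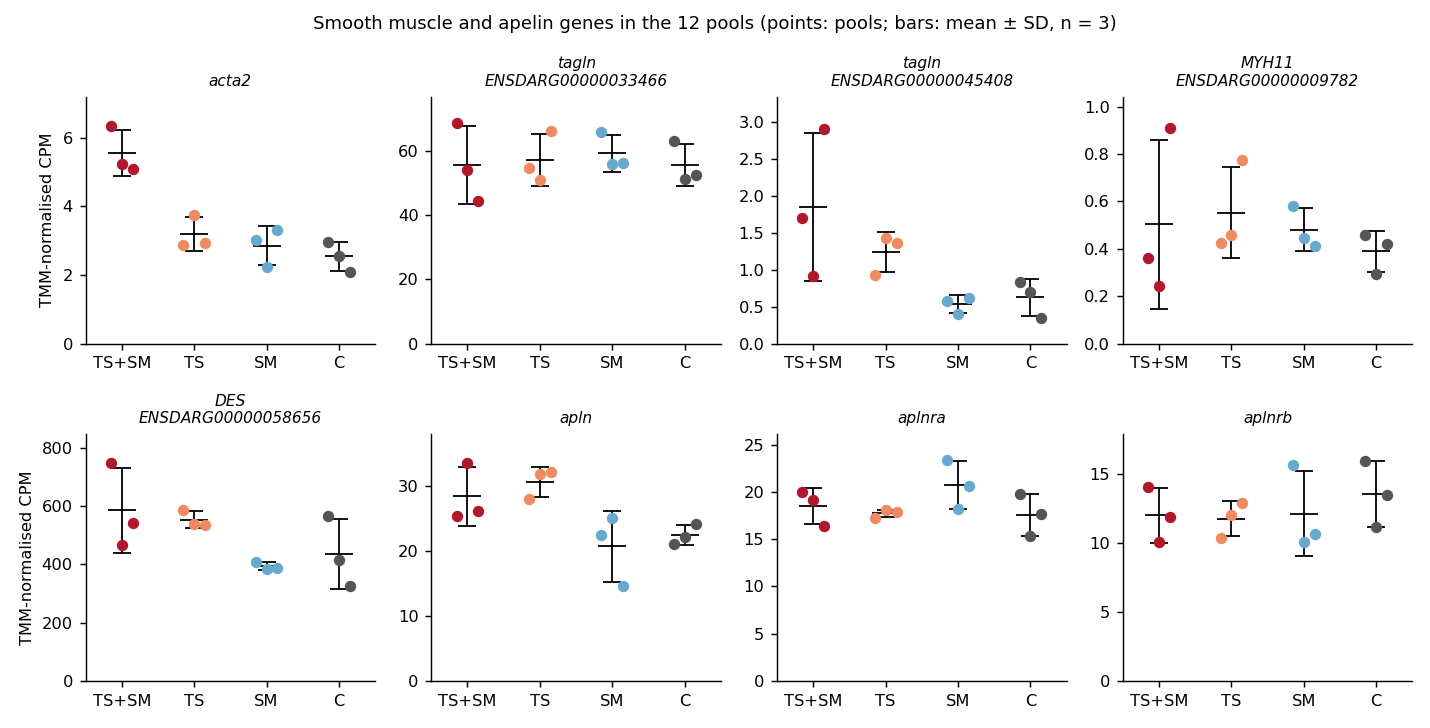
TMM-normalised CPM of the 8 rows that passed the filter in each pool (points) with the mean and SD of the 3 pools of a group (bars), for TS+SM, TS, SM and C from left to right in every panel. The 3 TS+SM pools of acta2, at 5.09 to 6.33 CPM, are above all other pools, and both heated groups of tagln ENSDARG00000045408 and of apln are above both unheated ones.

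The muscle actins are nearly identical in sequence, and a read that matched several of them was in no gene's count, so the acta2 level rests on the reads that were assigned to it alone. The 3 skeletal muscle actin rows (actc1b and 2 rows named ACTA1) held 63467 to 202860 reads per library in TS+SM, 71597 to 222720 in TS, 47400 to 61584 in SM and 79015 to 96979 in C. The acta2 count was 0.120 to 0.170% of that total in TS+SM, 0.0512 to 0.103% in TS, 0.0812 to 0.141% in SM and 0.0632 to 0.0886% in C. These shares are of counts, not per length. In TS+SM the share lay above that of every TS and C pool and overlapped that of the SM pools. The part of misassigned skeletal actin reads in the acta2 level was not tested.

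Transgelin, an actin-binding protein of the smooth muscle cytoskeleton, gave 2 rows that behaved differently. The RefSeq gene table lists tagln, tagln2, tagln3a and tagln3b as separate genes, and which of the 2 rows named TAGLN is tagln was not resolved. The row ENSDARG00000033466 had 68.6, 53.9 and 44.2 CPM in TS+SM, 54.6, 50.8 and 66.3 CPM in TS, 65.9, 55.8 and 56.1 CPM in SM, and 63.2, 51.3 and 52.4 CPM in C. All 4 groups overlapped. Its log2 fold changes in the 7 comparisons lay between -0.13 and 0.09. The 95% interval in TS+SM against C was -0.39 to 0.39, with 973 to 3057 reads per library behind it.

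The other row, tagln ENSDARG00000045408, was higher in every heated pool than in any unheated one. It had 1.71, 0.920 and 2.91 CPM in TS+SM, 0.924, 1.42 and 1.37 CPM in TS, 0.582, 0.402 and 0.621 CPM in SM, and 0.836, 0.693 and 0.350 CPM in C. The counts were low, 19 to 76 reads in TS+SM, 26 to 53 in TS, 9 to 15 in SM and 10 to 22 in C. A gap between all 6 heated and all 6 unheated pools with the heated ones higher was found for 1.47% of all genes tested, and the row reached the filter's level in all 12 libraries.

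Averaged over both media, heat gave a log2 fold change of 1.38 for tagln ENSDARG00000045408 (SE 0.34, 95% interval 0.64 to 2.12, edgeR adjusted p = 0.0977). In TS+SM it was 1.55 against C (SE 0.47, edgeR adjusted p = 0.411) and 1.78 against SM (SE 0.49, edgeR adjusted p = 0.359), and in TS it was 0.98 against C (SE 0.47, edgeR adjusted p = 1.00). TS+SM and TS overlapped, with a log2 fold change of 0.58 (95% interval -0.42 to 1.57), and SM and C overlapped, with -0.22 (95% interval -1.30 to 0.85). DESeq2 called the average effect of heat (adjusted p = 0.0133). Leaving out each library in turn, DESeq2 kept that call in 8 of 12 fits, and lost it without TS+SM replicate 3, TS replicate 2, SM replicate 2 or C replicate 2. Over all 12 fits the adjusted p ran from 0.00296 to 0.0719.

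Smooth muscle myosin heavy chain, the motor of the contractile apparatus and one of the most specific markers of mature smooth muscle, was close to the limit of detection at this stage. The row MYH11 ENSDARG00000009782 had 16, 5 and 20 reads in TS+SM, 12, 9 and 30 in TS, 10, 10 and 10 in SM, and 12, 8 and 12 in C, which is 0.242 to 0.909 CPM over all 12 libraries. The groups overlapped in every comparison, and the log2 fold change in TS+SM against C was 0.35 with a 95% interval of -0.80 to 1.51. A difference was not detectable at this depth, and the interval reaches past a 2-fold higher level. The row MYH11 ENSDARG00000100972 had 0 or 1 read per library on its own strand, and 188 to 561 reads on the opposite strand in the same window. No difference is given for it, since every library was under 3 counts.

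Calponin, which binds actin and slows the myosin motor, was at the limit of detection. The row CNN1 ENSDARG00000102398 had 1, 1 and 4 reads in TS+SM, 3, 0 and 18 in TS, 0 in all SM pools, and 0, 1 and 1 in C, with most of its reads in TS replicate 3. The row CNN1 ENSDARG00000017193 had 0 to 3 reads in every library. Neither passed the filter. In the edgeR fit without a filter on low counts, CNN1 ENSDARG00000102398 had an adjusted p of 0.435 for heat averaged over both media and an adjusted p of 1.00 in TS against C. A gene at 3 counts in these libraries would stand at 0.0673 to 0.175 CPM.

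Desmin links the sarcomeres or dense bodies of skeletal, cardiac and smooth muscle alike. The row DES ENSDARG00000058656 had 749, 467 and 542 CPM in TS+SM, 586, 540 and 535 CPM in TS, 410, 384 and 387 CPM in SM, and 565, 416 and 326 CPM in C. TS+SM lay above SM without overlap, as found for 5.67% of all genes, while C reached into the heated groups through its replicate 1. The log2 fold change was 0.58 in TS+SM against SM (SE 0.22, edgeR adjusted p = 0.656), 0.43 in TS+SM against C (SE 0.22, edgeR adjusted p = 0.866) and 0.46 for heat averaged over both media (SE 0.16, edgeR adjusted p = 0.299). The second row, DES ENSDARG00000005221, had 0 to 3 reads per library, with 10 to 59 reads on the opposite strand.

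Apelin, the ligand, had modestly higher levels in the heated pools of both media, but neither edgeR nor DESeq2 called it over all 12 libraries. In TS+SM apln had 25.5, 33.7 and 26.2 CPM, in TS 28.1, 31.9 and 32.2 CPM, in SM 22.5, 25.2 and 14.6 CPM, and in C 21.1, 22.3 and 24.2 CPM. Every heated pool was above every unheated one, by a margin of 25.5 against 25.2 CPM at the closest point, and SM replicate 3 was the lowest pool of all. Such a gap with the heated pools higher was found for 1.47% of all genes tested. The average effect of heat was 0.45 on the log2 scale (SE 0.14, 95% interval 0.15 to 0.75, edgeR adjusted p = 0.213; DESeq2 adjusted p = 0.0911).

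The estimate for heat on apln was alike in both media, with a wide interval on the difference. It was 0.45 in TS against C (SE 0.19, edgeR adjusted p = 1.00) and 0.45 in TS+SM against SM (SE 0.19, edgeR adjusted p = 0.738), with an interaction of 0.01 (95% interval -0.59 to 0.60). TS+SM stood 0.34 above C (95% interval -0.08 to 0.76) without overlap of the pools, and 0.11 below TS, at a log2 fold change of -0.11 (95% interval -0.53 to 0.31). Pools that do not overlap with the first group higher were found for 6.83% of all genes in TS+SM against C, 5.67% in TS+SM against SM and 5.81% in TS against C.

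In the comparisons tested, the apelin receptors gave no difference beyond the spread between pools. The aplnra row had 20.0, 19.2 and 16.4 CPM in TS+SM, 17.2, 18.0 and 17.9 CPM in TS, 23.3, 18.2 and 20.6 CPM in SM, and 19.7, 15.3 and 17.6 CPM in C. The aplnrb row had 14.1, 10.1 and 11.9 CPM in TS+SM, 10.4, 12.04 and 12.9 CPM in TS, 15.7, 10.1 and 10.7 CPM in SM, and 15.97, 11.2 and 13.5 CPM in C. All groups overlapped for aplnrb. For aplnra the highest TS pool, at 18.0 CPM, lay just below the lowest SM pool, at 18.2 CPM. All other pairs of groups overlapped for aplnra, and TS against SM was not among the comparisons tested. Relative to C, the log2 fold change in TS+SM was 0.08 for aplnra (95% interval -0.24 to 0.40) and -0.17 for aplnrb (95% interval -0.62 to 0.29). The effect of SM at 27°C was 0.24 for aplnra (95% interval -0.08 to 0.56, edgeR adjusted p = 0.989).

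Another 2 rows of the apelin system stood outside the chosen symbols. A further receptor row, named APLNR without a letter (ENSDARG00000004447), ranged from 6.86 to 12.96 CPM over the 12 libraries, and its average effect of heat was 0.02 (SE 0.17, edgeR adjusted p = 0.992). The early ligand apela had 12.6, 9.68 and 6.87 CPM in TS+SM, 8.64, 11.0 and 9.87 CPM in TS, 17.4, 10.9 and 11.1 CPM in SM, and 13.9, 11.6 and 10.7 CPM in C. Its average effect of heat was -0.36 (SE 0.17, edgeR adjusted p = 0.561), with heated and unheated pools overlapping.

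The rows differed in their pattern over the libraries. Across the 12 libraries the log2 CPM of acta2 correlated with that of tagln ENSDARG00000045408 (Pearson's r = 0.77) and DES ENSDARG00000058656 (r = 0.68), and tagln ENSDARG00000045408 with DES ENSDARG00000058656 (r = 0.79). With tagln ENSDARG00000033466 the coefficient was 0.02 for acta2, -0.14 for tagln ENSDARG00000045408 and 0.29 for DES ENSDARG00000058656, and with MYH11 ENSDARG00000009782 it was -0.03, 0.43 and 0.13 in the same order. The ligand apln had r = -0.31 with aplnra and -0.14 with aplnrb, and the receptors had 0.47 with each other. These coefficients are descriptions over 12 libraries that share 4 treatments, 1 depth each and 1 normalisation.

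For each tested row the 3 genes with the most similar pattern were named by the same coefficient over the 12 libraries. For acta2 they were cox4i1l (r = 0.91), a cytochrome oxidase subunit, WDR45B (r = 0.90), an autophagy protein, and ZMYND8 (r = 0.89), a chromatin reader. For tagln ENSDARG00000045408 they were SMYD1 (r = 0.93), a methyltransferase of the myofibril, NLN (r = 0.93), a peptidase, and CLU (r = 0.93), a secreted chaperone. For DES ENSDARG00000058656 they were cav3 (r = 0.97), the caveolin of striated muscle, ACTA1 (r = 0.94), a skeletal muscle actin, and txlnbb (r = 0.94).

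The remaining rows had other neighbours. For apln they were NELL2 (r = 0.96), si:dkey-88e18.8 (r = 0.96) and the synaptic vesicle protein SV2A (r = 0.95). For aplnra they were bmp16 (r = 0.93), a ligand of the bone morphogenetic protein family, the adrenergic receptor ADRA1D (r = 0.92) and ap1s3b (r = 0.91), and for aplnrb they were foxc1b (r = 0.91), a forkhead factor of the mesenchyme, ALG14 (r = 0.90) and GPR182 (r = 0.86), a receptor of endothelial cells. For tagln ENSDARG00000033466 they were SDR16C5 (r = 0.96), CRYL1 (r = 0.93) and ddt (r = 0.92), and for MYH11 ENSDARG00000009782 PXN (r = 0.85), PXDC1 (r = 0.84) and pcdh20l (r = 0.84). With so many genes searched over so few libraries, high coefficients arise for any row.

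The wider contractile and mural programme was described with a list of other smooth muscle, pericyte and regulator genes, of which 49 rows were matched and 42 tested. In TS+SM against C 0 of 42 were called (0.171% of all genes), 1 reached an unadjusted p of 0.05 (6.24% of all genes), and the median log2 fold change was 0.02, next to -0.03 over all genes. For heat averaged over both media 0 of 42 were called (0.851% of all genes), 1 reached the unadjusted threshold (9.36% of all genes), and the median was 0.13, next to 0.00 over all genes. The rows with the smallest p in TS+SM against C were MYLK, the kinase that activates smooth muscle myosin, nkx3.3, a homeobox factor of visceral mesoderm, and foxf2a, a forkhead factor of pericytes. MYLK averaged 2.36 ± 0.49 CPM in TS+SM and 1.30 ± 0.42 CPM in C (log2 fold change 0.85, SE 0.33, edgeR adjusted p = 0.651). The log2 fold changes of nkx3.3 and foxf2a were 0.99 (SE 0.50, edgeR adjusted p = 0.865) and 0.40 (SE 0.22, edgeR adjusted p = 0.898).

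Over the tested rows of that list the log2 fold changes in TS+SM against C ran from -1.34 to 0.99. For TS+SM against C the mural cell receptor PDGFRB had a log2 fold change of 0.24 (SE 0.20), NOTCH3 of -0.02 (SE 0.19) and smoothelin smtnb of -0.17 (SE 0.17). All were picked after their values were seen and do not stand for the rest of the list. CSPG4, a proteoglycan of pericytes, was the 1 row at the unadjusted threshold for heat averaged over both media (log2 fold change 1.18, SE 0.51, edgeR adjusted p = 0.488), and KCNE4, a potassium channel subunit of pericytes, the 1 in TS+SM against SM (-1.19, SE 0.51, edgeR adjusted p = 0.752). The coactivator gene myocd matched no row.

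The smooth muscle label names the genes chosen, and the values of its markers do not show which cells transcribed them. Of 13 rows in the short list of defining smooth muscle and mural genes, 8 were tested, and MYH11 ENSDARG00000100972, CNN1 ENSDARG00000017193 and DES ENSDARG00000005221 had 3 counts or fewer in every library. The potassium channel row KCNJ8 and smoothelin smtna, both of the wider list, had at most 1 and 2 counts. The summed level of the 13 rows, 551 to 850 CPM in TS+SM, 622 to 673 CPM in TS, 470 to 504 CPM in SM and 407 to 660 CPM in C, rested mainly on the reads of DES ENSDARG00000058656. The genes most like that row included cav3 of striated muscle (r = 0.97) and the skeletal muscle actin ACTA1 (r = 0.94).

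Genes of the apelin pathway were counted in a list of 47 rows, 46 of them tested. It leaves out apln and the receptors described above but includes apela. The list contains genes that the study itself picked from these samples for the combined treatment, so its counts are not independent of that choice. In TS+SM against C 0 of 46 were called and 4 reached an unadjusted p of 0.05, 3 higher and 1 lower, next to 0.171% and 6.24% of all genes, with a median log2 fold change of -0.05. For heat averaged over both media 0 of 46 were called and 4 reached it, next to 0.851% and 9.36% of all genes, with a median of 0.07. At the unadjusted threshold the list's share was near that of all genes in both comparisons.

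Among these, MEF2D, a muscle transcription factor, averaged 28.3 ± 6.5 CPM in TS+SM and 54.3 ± 7.0 CPM in C, a log2 fold change of -0.94 (SE 0.21, edgeR adjusted p = 0.168). The autophagy gene map1lc3cl, which the study had picked for TS+SM from these libraries, averaged 24.6 ± 2.2 CPM in TS+SM and 11.5 ± 3.1 CPM in C (1.09, SE 0.27, edgeR adjusted p = 0.228). The calcium release channel RYR3 averaged 69.2 ± 35.1 CPM in TS+SM and 23.1 ± 9.2 CPM in C (1.58, SE 0.43, edgeR adjusted p = 0.302). The fourth at the unadjusted threshold in TS+SM against C was MEF2B (1.16, SE 0.48, edgeR adjusted p = 0.719). For heat averaged over both media the 4 were MEF2D (-0.59), map1lc3cl (0.79), RYR3 (1.18) and RYR1 (0.59), the calcium release channel of skeletal muscle. Of the other genes the study picked, si:ch211-286b5.5 had an edgeR log2 fold change of 0.05 (SE 0.25) in TS+SM against C, the row named MEF2A 0.59 (SE 0.44) and the row named RYR2 0.12 (SE 0.29), where the last 2 names lack the letter of the zebrafish copy. The study took its genes from DESeq2 at an adjusted p below 0.05, and DESeq2 values of these rows are not given here.

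**Figure D3:**
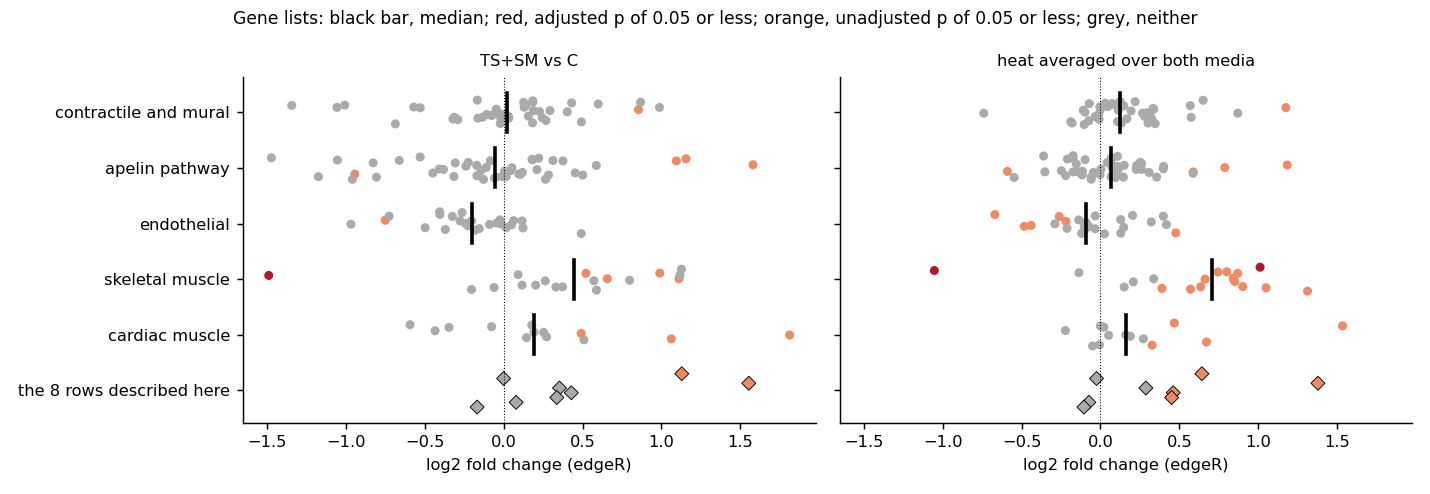
Log2 fold changes from edgeR of the tested rows of 5 gene lists and of the 8 rows described here (diamonds), in TS+SM against C (left) and for heat averaged over both media (right), with the median of each list as a black bar, an adjusted p of 0.05 or less in red, an unadjusted p of 0.05 or less in orange and others in grey. The contractile and mural list has medians of 0.02 and 0.13, and the skeletal muscle list medians of 0.45 and 0.70 with MYOG as the called row below 0.

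Among skeletal muscle genes, edgeR called 2 rows for heat averaged over both media. Of 21 rows, desmin excluded, 18 were tested. For heat averaged over both media 13 were higher and 1 lower at an unadjusted p of 0.05, with a median log2 fold change of 0.70. These 14 of 18 stood next to 9.36% of all genes at that threshold, and the 2 called next to 0.851%. The fast myosin heavy chain myhz2 rose (log2 fold change 1.01, SE 0.18, edgeR adjusted p = 0.0256), at 413 ± 85 CPM in TS+SM and 383 ± 37 CPM in TS against 204 ± 56 CPM in SM and 191 ± 52 CPM in C. The differentiation factor MYOG fell (-1.05, SE 0.14, edgeR adjusted p = 0.00474), at 16.6 ± 0.9 CPM in TS+SM and 24.6 ± 1.4 CPM in TS against 37.8 ± 10.2 CPM in SM and 46.6 ± 9.1 CPM in C. In TS+SM against C 4 of 18 were higher and 1 lower at that unadjusted p (6.24% of all genes), with a median of 0.45. MYOG was the 1 called there, next to 0.171% of all genes (-1.49, SE 0.20, edgeR adjusted p = 0.0124), and next came myhz2 (1.11, SE 0.26, edgeR adjusted p = 0.181) and myhz1.1 (0.99, SE 0.34, edgeR adjusted p = 0.551).

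The summed level of the 21 skeletal muscle rows was 12319, 8332 and 13397 CPM in TS+SM, 11328, 9890.0 and 16129 CPM in TS, 6627, 7385 and 6791 CPM in SM, and 9792, 7473 and 8297 CPM in C. It was above all SM pools in every heated pool, and above all C pools in every heated pool but TS+SM replicate 2. It thus moved in the direction of tagln ENSDARG00000045408, DES ENSDARG00000058656 and apln, and its part in their values was not tested. For acta2, TS+SM replicate 2 had 5.23 CPM with a skeletal muscle sum inside the range of the C pools. TS replicate 3 had the highest skeletal muscle sum with 2.94 CPM of acta2. These pools were picked after their values were seen, and over the 12 libraries acta2 had r = 0.68 with DES ENSDARG00000058656. The part of skeletal muscle in the acta2 level was not tested.

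**Figure D4:**
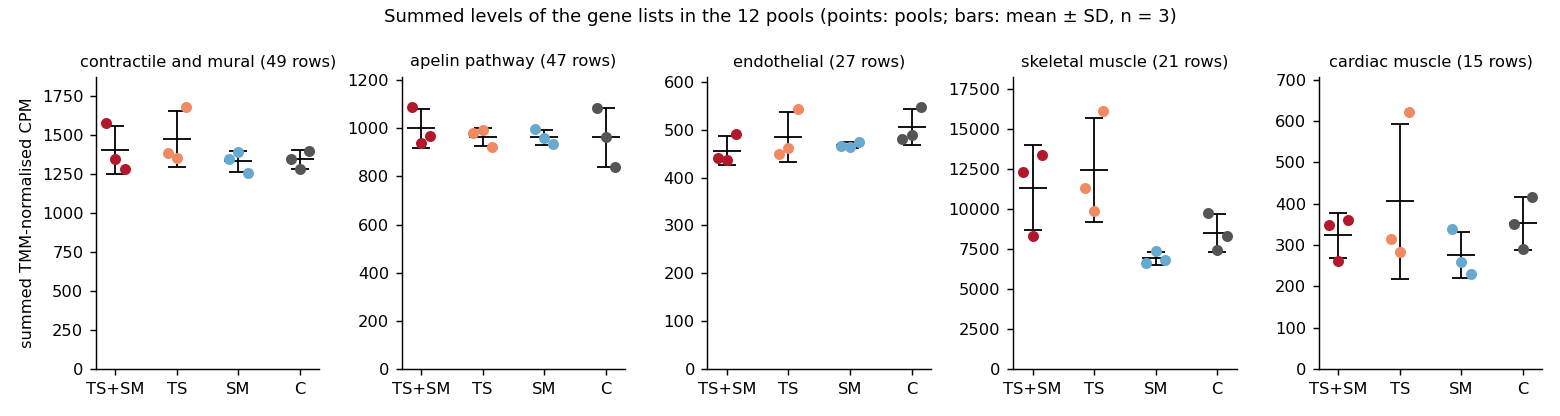
Summed TMM-normalised CPM of the 5 gene lists in each pool (points) with the mean and SD of the 3 pools of a group (bars), for TS+SM, TS, SM and C from left to right. The skeletal muscle sum is 8332 to 16129 CPM in the heated pools and 6627 to 9792 CPM in the unheated ones, while the sums of the contractile and mural and of the apelin pathway lists overlap among all 4 groups.

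No heart or vessel marker was called by edgeR. Of 15 cardiac rows 13 were tested and 0 were called in TS+SM against C (0.171% of all genes), where 3 were higher at an unadjusted p of 0.05 (6.24% of all genes): the natriuretic peptide gene nppa (log2 fold change 1.81, SE 0.52, edgeR adjusted p = 0.354), the myosin heavy chain row MYH7 (1.06, SE 0.32, edgeR adjusted p = 0.388) and the myosin light chain row MYL7 (0.49, SE 0.20, edgeR adjusted p = 0.704). For heat averaged over both media 0 of 13 were called (0.851% of all genes). At the unadjusted threshold 4 were higher and 0 lower (9.36% of all genes), with a median log2 fold change of 0.16. The cardiac sum was 260 to 360 CPM in TS+SM, 282 to 622 CPM in TS, 230 to 337 CPM in SM and 290 to 417 CPM in C, and all groups overlapped.

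Of 27 endothelial rows 25 were tested, and 0 were called in TS+SM against C (0.171% of all genes) or for heat averaged over both media (0.851% of all genes). In TS+SM against C 1 was lower at an unadjusted p of 0.05, with a median log2 fold change of -0.20, and for heat averaged over both media 5 were lower and 1 higher, with a median of -0.09. The shares of all genes at that threshold were 6.24% in TS+SM against C and 9.36% for heat. TAL1, a factor of blood and endothelial precursors, had a log2 fold change of -0.75 in TS+SM against C (SE 0.15, edgeR adjusted p = 0.112), at 17.0 ± 0.5 CPM in TS+SM and 28.7 ± 4.0 CPM in C. The next 2 were the receptor gene tek (-0.50, SE 0.26, edgeR adjusted p = 0.866) and the arterial ligand EFNB2 (-0.23, SE 0.12, edgeR adjusted p = 0.866). The summed endothelial level was 436 to 492 CPM in TS+SM, 449 to 544 CPM in TS, 464 to 474 CPM in SM and 480 to 548 CPM in C. The part of vessel content in the levels of acta2, apln and the receptors was not tested.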

How the data were processed

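The authors deposited read counts per Ensembl gene for each library, made with STAR 2.6.1 on GRCz11 after fastp 0.23.1 trimming, per the labels, from a stranded mRNA kit. Column 4 (sense strand) was used. Its reads assigned to no gene (9.42 to 12.2%), to several genes (0.799 to 1.03%) or to several places were left out. Names came from a table covering 29201 of the 32520 identifiers. A listed gene was matched by symbol or, failing that, by its name without the copy letter. Coordinates and sequences were not used here.

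edgeR 4.0.16 (TMM, filterByExpr with a minimum count of 10, robust quasi-likelihood F tests, two-sided, R 4.3.3) was fitted to all 12 libraries, and DESeq2 1.42.0 was the alternative tool. Scripts were tested on simulated data. Other alternatives were DESeq2 size factors, no filter, the unstranded column, the replicate number as a block, only the groups compared, and leaving out each library. DESeq2 with each library left out was added after seeing the data. Members and lists were chosen with earlier results of these data known. Named from the lists were rows called in any comparison and otherwise the 3 with the smallest p in TS+SM against C; rows named beyond that were chosen after their values were seen.

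Replicate numbers were checked for pairing by correlating deviations from the group means. All 3 pairs were over 0.1 for TS with C (0.294 to 0.786) and for TS+SM with C (0.106 to 0.619). They were not in the other combinations, among them TS+SM with TS (0.0608 to 0.556). Pools of TS and TS+SM that both pair with C would also pair with each other, so whether the numbers pair the pools was not settled. Apart from the replicate block, the fits did not use the replicate number.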

Additional observations from a re-analysis of the deposited data

How the results depend on the processing

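In all edgeR alternatives, with every library left out in turn included, 0 of the 8 tested rows were called in any comparison, and no row with an unadjusted p of 0.05 or less changed sign. DESeq2 called 1 row in TS+SM against C, 1 in TS+SM against SM and 2 for heat averaged over both media. The row in TS+SM against C was acta2, which the study had picked with DESeq2 from these libraries, so that call is not independent. The adjusted p of acta2 in TS+SM against C ranged from 0.00213 (DESeq2 without SM replicate 2) to 0.592 (edgeR without C replicate 2). Its log2 fold change ranged from 1.02 to 1.29. Over the whole table DESeq2 called 113 genes in TS against C (edgeR 18), 1 in SM against C (edgeR 0), 176 in TS+SM against C (edgeR 32), 139 in TS+SM against SM (edgeR 20), 2 for the interaction (edgeR 0) and 445 for heat averaged over both media (edgeR 159). With only the groups compared in the fit, edgeR called 0 genes in TS against C, 2 in TS+SM against C and 2 in TS+SM against SM. The replicate block raised the genes called in TS+SM against SM to 36, where the correlation of the pairs went down to 0.0239, and changed no call of the 8 rows. Leaving out each library in turn gave 7 to 18 genes in TS against C, 5 to 36 in TS+SM against C, 2 to 30 in TS+SM against SM, 72 to 172 for heat averaged over both media and 0 in the other comparisons. The cause of these differences was not tested. The MYH11 and CNN1 rows rest on few reads.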
